A study of Mus musculus with 10 samples.

Results

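This account covers the genes of DNA replication and S phase in cultured mouse ureteric buds, the branching epithelial tubes from which the collecting ducts of the kidney arise. A gene was taken when the authors' comparison tables named it and it was in a list of 30 replication and S phase genes or its symbol began with Mcm, Rfc, Gins, Orc, Prim, Pola, Pold, Pole or Rpa. The rule gave 31 of the 634 genes that could be named. Of the list, 24 genes were found, and the start of the symbol added Orc6, Pola1, Pola2, Pole, Rfc5, Rpa1 and Rpa2. Mcm2, Mcm10, Tyms, Gins2, E2f1 and Orc1 were not analysed here, since names could be given only to probe sets in those tables.

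Before a cell can copy its genome, the origin recognition complex, Cdc6 and Cdt1 load the ring of Mcm proteins on DNA in G1. At the G1/S boundary cyclin E with its kinase, and the release of E2F transcription factors from the retinoblastoma family, switch on both the firing of origins and many of the genes of the replication machinery. GDNF, a ligand made by the surrounding mesenchyme, acts through the receptor Ret on the tip cells of the bud and is the main signal for its outgrowth and branching, and dividing cells are concentrated in these tips.

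The tissue was ureteric bud of Swiss Webster embryos at stage E11.5, isolated and grown in Matrigel without the mesenchyme that normally surrounds it. The plus GDNF group had received 100 ng/mL GDNF for 16 h before extraction, and the labels of the minus GDNF group give no GDNF. No allele, transgene or other agent is named for either group, and nothing else is said of the medium in the sources used here. The Affymetrix array types were 430A and the older U74Av2, each with 3 plus and 2 minus arrays, 10 arrays in all. RNA was isolated from 30 to 40 buds at a time, and some 5 to 6 such batches went on each array, so an array is an average over many embryos and p-values measure the spread between pools. In such bulk RNA fewer cells of a type and less RNA per cell cannot be told apart. Values are probe set intensities on a linear scale, with array medians of 281 to 321 on 430A and 211 to 248 on U74Av2, and the small number of arrays limits their precision.

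The bud identity of the samples could not be checked, since genes had names only where the authors listed them as changed between these groups. The directions and sums below rest on that choice. Ret, Wnt11, Calb1, Lhx1 and Sox9, all expressed in bud epithelium, were higher with GDNF on 430A, by 1.49, 1.04, 0.72, 0.64 and 0.62 on the log2 scale. The epithelial markers Cdh16, Krt8 and Npnt were lower (log2 -0.92, -0.52 and -0.77). Of 11 mesenchyme markers 2 were named on 430A, Cdh11 and Cited1, and of 13 stromal markers 3, Postn, Tcf21 and Vim. Their summed intensities were 710.0 to 852 with GDNF against 1122 to 1130 without for the mesenchyme markers, and 1464 to 2018 against 2796 to 2798 for the stromal markers. No endothelial or blood marker of the 5 in each list was named on either type, so the presence of such cells could not be read. On U74Av2 Ret, Wnt11 and Calb1 were the named epithelial markers, all higher, and Acta2 the named stromal marker, lower by its estimate (log2 -0.41, SE 0.20). The 8 epithelial markers of 430A summed to 16876 to 17309 with GDNF and 17647 to 17859 without. The part of other cell types in the values below was not tested.

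Every replication gene was higher with GDNF, as were 36.7% of all probe sets tested on 430A and 43.7% on U74Av2. All 28 genes on 430A, in 40 probe sets, and all 18 genes on U74Av2, in 18 probe sets, had each plus array above each minus array. That held for 15.3% of all 19521 probe sets tested on 430A and 17.5% of all 10588 on U74Av2. The median difference of the genes was 0.75 on the log2 scale on 430A, with a range from 0.46 for Rfc5 to 1.29 for Ung. It was 0.92 on U74Av2, from 0.62 for Pold1 to 1.35 for Rrm2. Cdc6, at 1.28 on 430A, is a lower bound, so it may lie above Ung. All probe sets tested had medians of -0.07 and -0.04.

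These directions cannot be read as a test. The authors listed a probe set only where the lower 90% bound of its fold between the same arrays exceeded 1.2 and the means differed by more than 100, and a gene with a name had passed that filter. Of all named genes 76.6% were higher on 430A and 87.6% on U74Av2, with median differences of 0.60 and 0.78. The lowest bounds among the replication genes in the authors' deposited table were 1.22 on 430A (Ccne1, Pola2, Prim2 and Rfc5) and 1.21 on U74Av2 (Rfc3 and one probe set of Rfc4). The limma p-values place the genes among all probe sets of a type and are no independent support.

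In the limma fits within a type, none of the 28 genes reached an adjusted p of 0.05 on 430A, where 0% of probe sets did. None of the 18 did on U74Av2, where 0.00944% did. At an adjusted p of 0.1 there were 10 of 28 on 430A, against 0.902% of probe sets called as higher, and 0 of 18 on U74Av2, against 0.0472%. Among all named genes, which had passed the same filter, 146 of 543 were under 0.1 on 430A and 5 of 275 on U74Av2, in either direction. The 10 genes on 430A became 0 when any single plus array or minus array 2 was left out, and 17 without minus array 1. All 28 and all 18 had an unadjusted p under 0.05 and were higher, as were 8.21% and 7.77% of all probe sets. Of all named genes, 543 of 543 on 430A and 267 of 275 on U74Av2 were under 0.05 in either direction. The unadjusted p therefore does not set the replication genes apart from the other named genes.

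**Figure D1:**
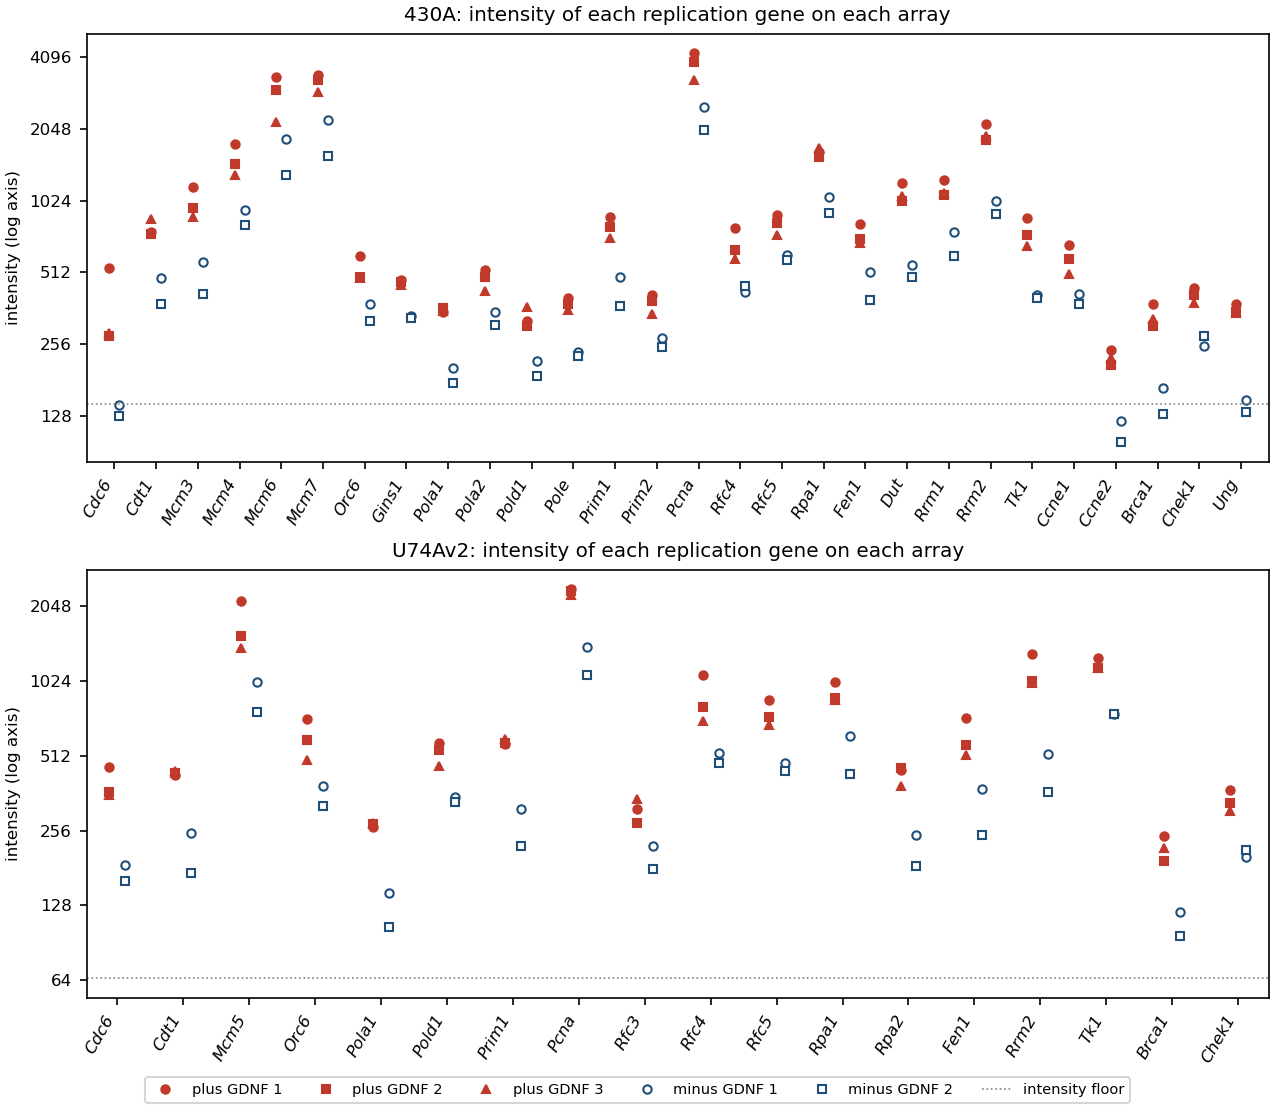
Intensity (log axis) of the 28 replication genes on 430A and the 18 on U74Av2, one probe set per gene, with each of the 3 plus GDNF arrays as a filled symbol and each of the 2 minus GDNF arrays as an open one. The dotted lines mark the floor of each table, 143 and 65.0. In each gene the filled symbols lie above the open ones, and both minus arrays of Cdc6 and Ccne2 lie below the floor on 430A. Heights of different genes are not comparable.

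Both factors that load the Mcm ring, Cdc6 and Cdt1, were measured on both array types and were higher with GDNF on each. Cdc6, the ATPase that joins the origin recognition complex to load the helicase, read 536, 277 and 285 on the plus arrays and 142 and 128 on the minus arrays of 430A. Plus array 1 was far above the other plus arrays, and both minus arrays were under the floor of the table. Against that floor Cdc6 was at least 2.43-fold higher with GDNF (log2 1.28, SE 0.30). Without plus array 1 the log2 difference against the same floor was 0.97. With the floor at the 40th percentile of the table it was 0.56, a lower bound set by that higher floor. On U74Av2 the values were 462, 367 and 357 with GDNF and 186 and 161 without, a difference of 1.18 (SE 0.18). The groups did not overlap on either type, and plus array 1 was the highest again. Over both types the log2 difference of Cdc6 was 1.23 (SE 0.17; limma, adjusted p = 0.00103). That value is in part a lower bound, since both minus arrays of 430A were set to the floor. In the fit over both types 99.5% of the 184 genes named on both passed 0.05. Its p-values, here and below, rest on genes chosen for change on these arrays and are no independent support.

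Cdt1, its partner in loading, which is destroyed once S phase begins, read 759, 744 and 856 with GDNF and 484 and 378 without on 430A. On U74Av2 it read 427, 438 and 443 against 249 and 173. The plus arrays were close to each other and well above the minus arrays on both types, with differences of 0.88 (SE 0.14) and 1.07 (SE 0.19). The authors' deposited table gives a fold of 1.56 for Cdt1 on U74Av2, under the 2.06 of the deposited intensities. Orc6, the smallest subunit of the origin recognition complex, read 601, 489 and 486 against 378 and 321 on 430A. On U74Av2 the Orc6 values were 721, 594 and 492 against 388 and 321. Its groups were apart but near each other, and its difference on 430A, 0.59 (SE 0.14), was the smallest of the licensing genes.

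Of the subunits of the replicative helicase ring, Mcm3, Mcm4, Mcm5, Mcm6 and Mcm7 were measured. Mcm3 read 1170.2, 953 and 876 on the plus and 568 and 417 on the minus arrays of 430A, and plus array 1 was the highest and minus array 2 the lowest. Its difference of 1.03 (SE 0.19) was the largest of the Mcm genes on 430A in the probe sets read here. Another Mcm6 probe set gave 1.19 and another Mcm3 probe set 0.67, so this rank depends on the probe set. Mcm4 was 1304 to 1761 with GDNF and 810.0 to 936 without, and Mcm6 2189 to 3362 and 1315 to 1856. Mcm7 was 2908 to 3442 with GDNF and 1582 to 2221 without. These 3 subunits differed by 0.78 (SE 0.16), 0.84 (SE 0.23) and 0.77 (SE 0.17), so their intervals overlap widely. Mcm5, named on U74Av2 alone, was 1391 to 2158 with GDNF and 767 to 1016 without, a difference of 0.92 (SE 0.24).

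The promoters of the Mcm genes are shown because the ring is built from equal numbers of its subunits and its genes are textbook targets of E2F. The windows run from 250 bases before to 50 bases after the annotated start and come from RefSeq, build GRCm38.p6, each read 5′ to 3′ on the strand of its gene. Capitals mark letters of E2F sites (TTTCCCGC, TTTCGCGC, TTTGCCGC or TTTGGCGC) and of the CCAAT box bound by NF-Y, each on either strand. Matches can overlap, as a pair of E2F matches does in Mcm5 and in Mcm6 and an E2F match and a CCAAT box in Mcm7. Mcm3 is from chr1:20820263-20820562 on the minus strand, Mcm5 from chr8:75109259-75109558 on the plus strand and Mcm6 from chr1:128359656-128359955 on the minus strand. Mcm7 has 2 windows in RefSeq, and the one shown is chr5:138171834-138172133 on the minus strand. The other Mcm7 window, chr5:138171217-138171516, has 0 E2F matches and 1 CCAAT box. No window was at hand for Mcm4.
Mcm3: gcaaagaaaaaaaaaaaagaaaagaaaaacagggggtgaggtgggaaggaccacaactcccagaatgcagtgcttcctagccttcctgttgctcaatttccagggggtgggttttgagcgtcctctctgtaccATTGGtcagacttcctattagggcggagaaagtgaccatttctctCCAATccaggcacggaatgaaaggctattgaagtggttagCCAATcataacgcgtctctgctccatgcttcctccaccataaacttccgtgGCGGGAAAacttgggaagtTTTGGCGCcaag
Mcm5: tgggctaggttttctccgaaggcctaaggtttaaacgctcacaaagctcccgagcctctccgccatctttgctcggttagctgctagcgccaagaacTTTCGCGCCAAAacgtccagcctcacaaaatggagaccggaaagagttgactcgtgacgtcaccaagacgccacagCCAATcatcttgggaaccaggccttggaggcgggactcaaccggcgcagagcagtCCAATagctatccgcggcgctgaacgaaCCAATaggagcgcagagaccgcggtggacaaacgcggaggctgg
Mcm6: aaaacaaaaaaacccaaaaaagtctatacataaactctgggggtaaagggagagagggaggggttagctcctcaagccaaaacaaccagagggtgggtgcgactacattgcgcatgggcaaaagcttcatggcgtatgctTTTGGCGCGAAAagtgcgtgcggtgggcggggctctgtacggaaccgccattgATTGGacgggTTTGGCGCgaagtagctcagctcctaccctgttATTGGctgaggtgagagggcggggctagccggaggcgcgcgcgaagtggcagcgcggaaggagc
Mcm7: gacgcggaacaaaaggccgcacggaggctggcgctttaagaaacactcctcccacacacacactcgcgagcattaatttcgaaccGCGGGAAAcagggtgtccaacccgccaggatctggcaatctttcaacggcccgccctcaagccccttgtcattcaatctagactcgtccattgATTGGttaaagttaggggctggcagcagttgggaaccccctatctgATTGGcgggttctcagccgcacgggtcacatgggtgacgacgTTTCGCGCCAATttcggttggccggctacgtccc

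All 4 of the windows shown held E2F letters, 2 matches in Mcm3, 2 in Mcm5, 3 in Mcm6 and 2 in Mcm7, together with 2 or 3 CCAAT boxes each. Counted from the start base as 1, with bases before it negative, the E2F pair lies at -153 to -142 in Mcm5 and at -110 to -99 in Mcm6, with another Mcm6 match at -47 to -40. In Mcm3 both matches lie after the start, at 20 to 27 and 39 to 46. In Mcm7 they lie at -165 to -158 and at 17 to 24. Cdc6 and Rrm2 are shown beside them because their differences were among the largest of the genes named on both types while their windows differ. The Cdc6 window (chr11:98907901-98908200 on the plus strand) has 1 E2F match and no CCAAT box. The Rrm2 window (chr12:24708004-24708303 on the plus strand) has 1 CCAAT box and no match to the 8 E2F letters, which says only that these letters are not in it.
Cdc6: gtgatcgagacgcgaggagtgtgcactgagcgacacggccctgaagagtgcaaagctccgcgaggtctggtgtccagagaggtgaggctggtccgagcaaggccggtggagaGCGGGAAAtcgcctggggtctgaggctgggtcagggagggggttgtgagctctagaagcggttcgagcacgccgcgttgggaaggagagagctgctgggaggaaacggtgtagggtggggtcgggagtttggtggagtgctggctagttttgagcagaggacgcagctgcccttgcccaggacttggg
Rrm2: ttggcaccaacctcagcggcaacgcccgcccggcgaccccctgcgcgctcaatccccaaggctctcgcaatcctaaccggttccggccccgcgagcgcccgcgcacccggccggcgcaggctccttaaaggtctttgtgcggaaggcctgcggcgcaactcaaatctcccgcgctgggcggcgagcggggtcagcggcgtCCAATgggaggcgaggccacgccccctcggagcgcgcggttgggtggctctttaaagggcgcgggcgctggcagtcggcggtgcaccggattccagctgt

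Of the 31 genes, 26 had a RefSeq window, and 9 of these (34.6%) held E2F letters: Mcm3, Mcm5, Mcm6, Mcm7, Cdc6, Cdt1, Pola1, Pold1 and Rfc3. Among all 17492 protein-coding genes with a window the share was 3.29%, and among the other named genes outside the replication and mitosis lists it was 7.6%. CCAAT boxes were in 53.8% of the replication windows and in 42.3% of all windows. The letters TTTGAA on either strand, which spell the CHR element of genes expressed in G2 and mitosis, were in 1 of 26 replication windows (3.85%, Fen1) and in 18.5% of all. The 29 windows of the other named replication and S phase genes held E2F letters in 27.6%, CCAAT boxes in 51.7% and TTTGAA in 37.9%, so that the low share of TTTGAA did not extend to them. In 36 windows of mitosis genes that the authors' tables also named, the order was turned, with TTTGAA in 77.8%, CCAAT in 77.8% and E2F letters in 8.33%. The windows of the replication genes had a median GC content of 62.2%, those of the mitosis genes 59.8% and all windows 57.3%. A gene with several windows was counted where any of them held the letters. These shares describe the letters of the windows and were not tested.

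**Figure D2:**
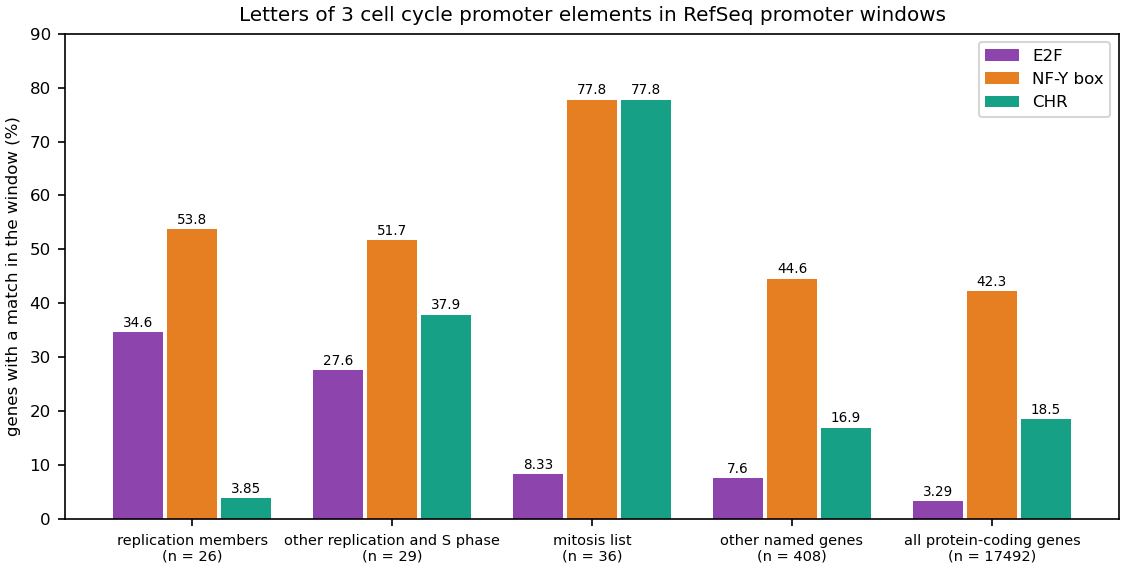
Share of genes whose RefSeq promoter window of 300 bases holds the letters of an E2F site, a CCAAT box (NF-Y box) or a CHR element, in percent, for the replication genes, other replication genes of the role lists, the mitosis list, the remaining named genes and all protein-coding genes, with the number of windows under each. E2F letters stand at 34.6% and CHR letters at 3.85% in the replication genes, against 27.6% and 37.9% in the other replication genes and 8.33% and 77.8% in the mitosis list.

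Gins1, a subunit of the GINS complex that turns the loaded Mcm ring into an active helicase, read 477, 464 and 453 with GDNF and 337 and 329.9 without on 430A. Its arrays lay close together within each group and the groups were well apart, though the difference of 0.48 (SE 0.09) was among the smallest of the 28.

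All 6 named subunits of primase and the polymerases were higher with GDNF on 430A, and all 3 on U74Av2. Pola1, the catalytic subunit of DNA polymerase alpha that starts each new strand with primase, read 351, 362 and 353 against 203 and 175 on 430A. Its U74Av2 values were 265, 271 and 274 against 144 and 105. The 3 plus arrays were nearly level on both types and far above the minus arrays. Pola1 rose by 1.02 (SE 0.11) over both types (limma, adjusted p = 1.77e-04), the smallest adjusted p of the 15 genes, shared with Brca1. At the 40th percentile floor it was 0.67 over both types, 0.59 on 430A and 0.75 on U74Av2. That floor lay above the minus arrays on both types, so these are lower bounds. Prim1, the catalytic primase subunit that lays down the RNA primer, read 874, 792 and 711 with GDNF and 489 and 370.0 without on 430A. The U74Av2 values of Prim1 were 572, 574 and 597 and 311 and 222. Minus array 2 was the lower of the minus arrays on both types, and the differences were 0.89 (SE 0.16) and 1.14 (SE 0.18).

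Prim2, the regulatory primase subunit, had the smallest difference of its role. Its values were 412, 387 and 342 with GDNF and 272 and 249 without on 430A, a difference of 0.54 (SE 0.12). Pola2, the accessory subunit of polymerase alpha, was 428 to 525 with GDNF and 308 to 349 without, a like difference of 0.55 (SE 0.13). Pole, the catalytic subunit of the leading-strand polymerase epsilon, was 357 to 401 with GDNF and 228 to 238 without, a difference of 0.70 (SE 0.10) with little spread within either group. Pold1, the catalytic subunit of polymerase delta, which copies the lagging strand, read 319, 304 and 368 against 217 and 188 on 430A. The U74Av2 arrays gave 578, 542 and 464 against 349.6 and 333. The groups were apart on both types, but the order of the plus arrays was not the same, with array 3 the highest on 430A and the lowest on U74Av2.

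Pcna, the ring that clamps polymerases to DNA and a standard label of S phase cells, read 4247, 3895 and 3279.8 with GDNF and 2528 and 2020.2 without on 430A. On U74Av2 the values were 2403, 2359 and 2276 and 1402 and 1082. All plus arrays stood above both minus arrays by a wide gap on both types. Over both types Pcna rose by 0.84 (SE 0.11) on the log2 scale (limma, adjusted p = 9.70e-04).

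The clamp loader that opens this ring was represented by Rfc3, Rfc4 and Rfc5. Rfc4 read 788, 638 and 583 against 425 and 448 on 430A. On U74Av2 it read 1079, 807 and 708 against 527 and 479. Plus array 1 led and plus array 3 was the lowest plus array on both. Rfc5 read 893, 827 and 734 against 604 and 579 on 430A, and its difference of 0.46 (SE 0.12) was the smallest of all 28 genes. Its U74Av2 values were 862, 737 and 683 against 478 and 447, a difference of 0.71 (SE 0.16). The Rfc5 groups were apart on both types. Rfc3, on U74Av2 alone, was 276 to 342 with GDNF and 179.8 to 222 without, a difference of 0.63 (SE 0.17), which was 0.40 without plus array 3 and minus array 2.

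RPA coats the single strands that the helicase exposes. Rpa1, its large subunit, read 1637, 1565 and 1704 with GDNF and 1063 and 912 without on 430A, with the plus arrays close together. The U74Av2 arrays gave 1011, 876 and 858 and 615 and 431. Its differences were 0.73 (SE 0.11) and 0.83 (SE 0.20), and the groups were apart on both types. Rpa2, the middle subunit, was 388 to 457 with GDNF and 184 to 246 without on U74Av2. Its difference of 1.02 (SE 0.18) was the largest of the clamp and single-strand binding genes on that type.

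Fen1, the nuclease that trims the flaps between Okazaki fragments, read 819, 703 and 681 against 512 and 393 on 430A. On U74Av2 it read 728, 567 and 514 against 377 and 245. Plus array 1 was the highest and minus array 2 the lowest on both, and the spread within groups was wide beside the difference of 0.97 (SE 0.25) on U74Av2.

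The enzymes that supply nucleotides had some of the largest differences, with medians of 0.96 over 4 genes on 430A and 1.00 over 2 on U74Av2. Rrm2, the small subunit of ribonucleotide reductase and the one whose amount follows S phase, read 2151, 1837 and 1912 with GDNF and 1022 and 895 without on 430A. Its U74Av2 values were 1321, 1025 and 1004 and 521 and 365. Each plus array was far above each minus array on both types. Over both types Rrm2 rose by 1.19 (SE 0.13) on the log2 scale, with an adjusted p of 2.30e-04 in limma. Rrm1, the large subunit, whose level varies less over the cycle, read 1243, 1079.7 and 1099.7 against 759 and 598 on 430A and had the smallest difference of the nucleotide genes there, 0.76 (SE 0.14).

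Dut, which hydrolyses dUTP and so keeps uracil out of DNA, read 1213, 1023 and 1074 against 549.9 and 488 on 430A. The groups were far apart, with a difference of 1.09 (SE 0.12) and an adjusted p of 0.0544 in limma. Tk1, which salvages thymidine, read 867, 731 and 658 against 409 and 398 on 430A. On U74Av2 Tk1 read 1271, 1159 and 1160.1 against 757 and 755. The minus arrays were almost equal on both types. Tk1 was 1 of 4 genes with a larger difference on 430A, 0.89 (SE 0.14), than on U74Av2, 0.66 (SE 0.14).

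The E cyclins activate Cdk2 at the entry into S phase. Ccne1 read 668, 583 and 505 with GDNF and 415 and 377 without on 430A, a difference of 0.56 (SE 0.14) with the lowest plus array not far above the higher minus array. Ccne2 read 242, 209.9 and 223 with GDNF and 122 and 99.1 without. Both minus arrays of Ccne2 lay below the floor, so that its level was at least 1.57-fold higher with GDNF (log2 0.65, SE 0.10). The ratio of its mean intensities was 2.03. With the floor at the 40th percentile of the table its difference was 0.01. That floor lay above both minus arrays and above plus arrays 2 and 3, so this value cannot give the size of the change.

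Ung, the glycosylase that removes uracil from DNA, read 375, 351 and 346 with GDNF and 149 and 133 without on 430A. The plus arrays were nearly level and the minus arrays lay at the floor of the table, 1 just above and 1 below it. Its difference of 1.29 (SE 0.09) was the largest estimate of the 28 genes at the floor used here (limma, adjusted p = 0.0544). Cdc6 at 1.28 was a lower bound, so Ung cannot be ranked above it. The ratio of mean intensities on 430A was 2.71 for Cdc6 and 2.53 for Ung. With the floor at the 40th percentile it was 0.60, a lower bound, since both minus arrays lay under that floor. Dut at 1.09 and Rrm2 at 1.04 were above this bound, so the rank of Ung depends on the floor. Brca1, which acts in repair by homologous recombination and at stalled forks, read 378, 306 and 325 against 167 and 131 on 430A, where minus array 2 was below the floor. The U74Av2 arrays gave 243, 193 and 217 against 120.1 and 95.8. Brca1 rose by 1.06 (SE 0.11) over both types (limma, adjusted p = 1.77e-04). At a floor set to the 40th percentile, Brca1 differed by 0.47 over both types, 0.51 on 430A and 0.43 on U74Av2. These are lower bounds, since that floor lay above the minus arrays on both types. Chek1, the kinase that holds back origin firing and mitosis when forks stall, read 440.0, 411 and 382 against 251 and 276 on 430A. On U74Av2 the Chek1 values were 374, 329 and 308 against 201 and 214. Minus array 2 was the higher of the minus arrays on both types in these probe sets, and the lower in the other Chek1 probe set of 430A.

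**Figure D3:**
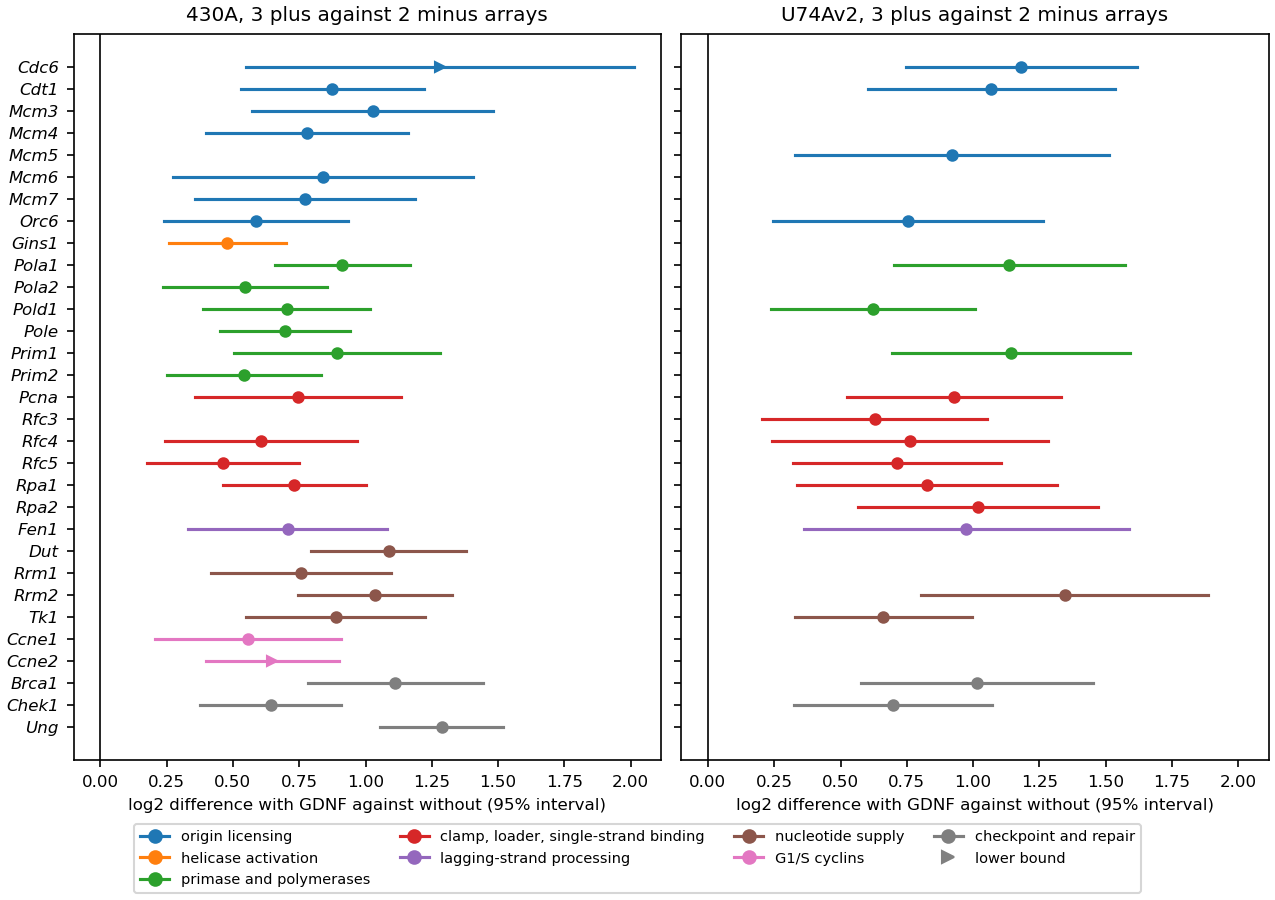
Log2 difference of intensity with GDNF against without for the 28 genes on 430A and the 18 on U74Av2, grouped by role. Points are limma estimates from 3 plus and 2 minus arrays, lines are 95% intervals, and right-pointing triangles are lower bounds because both minus arrays were below the floor. All points lie between 0.46 and 1.35, and intervals of most genes overlap each other.

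The 15 genes named on both types allowed a fit over all 10 arrays with array type as a term. All 15 passed an adjusted p of 0.05, as did 99.5% of the 184 genes named on both types, all of them chosen by the authors for change on these arrays. The rises ran from 0.59 for Rfc5 to 1.23 for Cdc6, with a median of 0.84 and adjusted p-values from 1.77e-04 to 0.00949. When the same-named arrays of the types were averaged to 5 samples, 12 of 15 passed and Orc6, Rfc4 and Rfc5 did not (adjusted p = 0.056, 0.0555 and 0.076). Without plus array 3 and minus array 2 of each type, 12 passed and Cdc6, Fen1 and Orc6 did not (0.0595, 0.0594 and 0.0754). Over all 21 alternatives run, the adjusted p of limma ranged from 4.00e-04 to 0.0595 for Cdc6, 4.57e-04 to 0.108 for Fen1 and 5.38e-04 to 0.0987 for Orc6. It ranged from 0.00102 to 0.108 for Rfc4 and 0.00149 to 0.076 for Rfc5.

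The difference was larger on U74Av2 in 11 of the 15 genes. The gap between types ran from -0.23 for Tk1 to 0.31 for Rrm2 on the log2 scale, and the test of the gap called none of the 15 (limma, smallest unadjusted p = 0.242, smallest adjusted p = 0.859), against 0.543% of the 184 genes. The 95% intervals of the gaps reached from -0.85 to 0.91, so gaps of that size are within what these arrays allow.

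**Figure D4:**
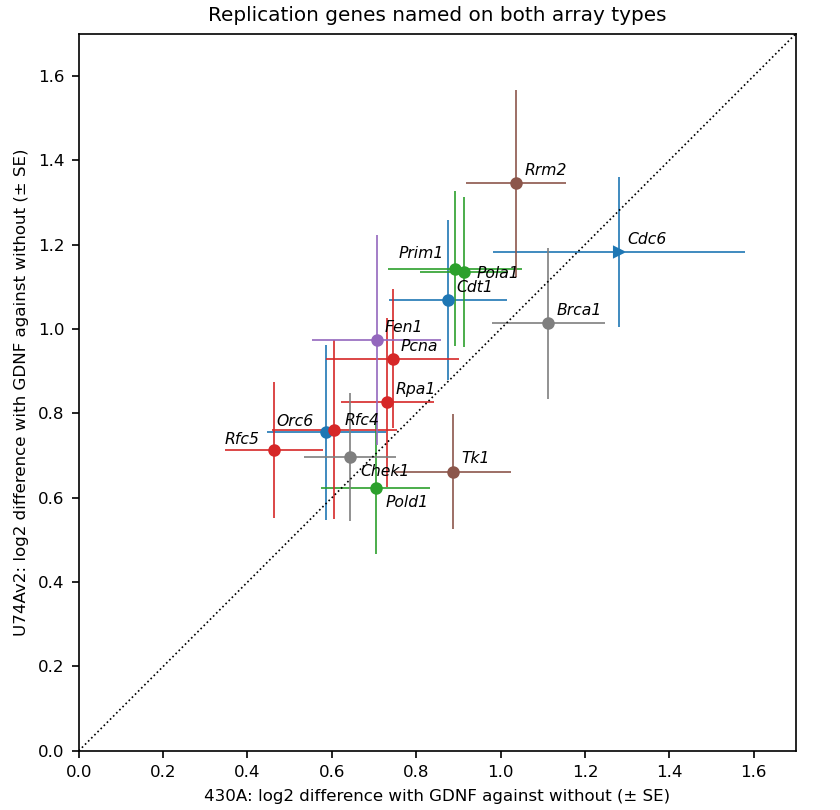
Log2 difference with GDNF against without on 430A (horizontal) and U74Av2 (vertical) for the 15 genes named on both types, with limma standard errors as bars and the dotted line marking equal differences. The points of 11 genes lie above the line, and Cdc6, Brca1, Tk1 and Pold1 lie below it. Colours are those of the roles in the plot of differences by gene.

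Most of the genes put the arrays in like order. Plus array 1 was the highest plus array in 24 of 28 genes on 430A and 13 of 18 on U74Av2, and plus array 3 the lowest in 18 and 12. Minus array 1 was above minus array 2 in 26 of 28 and 17 of 18, in the probe set read for each gene. Relative to each gene's mean over the 5 arrays, the median over the genes on 430A was 0.43, 0.26 and 0.19 on plus arrays 1 to 3 and -0.34 and -0.59 on minus arrays 1 and 2. On U74Av2 the medians were 0.47, 0.30 and 0.25 against -0.38 and -0.75. The order was not particular to these genes. Medians of the mitosis list were 0.49, 0.36 and 0.31 against -0.49 and -0.64 on 430A. On U74Av2 those of the mitosis list were 0.56, 0.44 and 0.37 against -0.51 and -0.895. Members of a gene set on the same arrays share these pools, so they do not count as replicates of the comparison.

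Control ratios stood apart on 2 of these arrays. The Gapdh signal at the 3′ end divided by that at the 5′ end, which climbs as RNA is degraded or shortened in labelling, was 1.19, 1.12 and 1.52 on the plus arrays and 1.09 and 1.74 on the minus arrays of 430A. On U74Av2 it was 1.22, 1.06 and 1.46 against 1.10 and 1.60. Plus array 3 and minus array 2, the arrays with the lowest replication values of their groups, had the highest ratios on both types. Without both arrays the median difference was 0.70 on 430A and 0.80 on U74Av2. With the Gapdh ratio as a covariate it was 0.70 and 0.86. The part of RNA quality in the differences was not tested beyond these fits. Same-named arrays of the types also deviated together across the 184 genes, with correlations of 0.41 to 0.59, although the series text gives a different pool to each chip. Whether the types are independent samples is therefore not settled here.

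**Figure D5:**
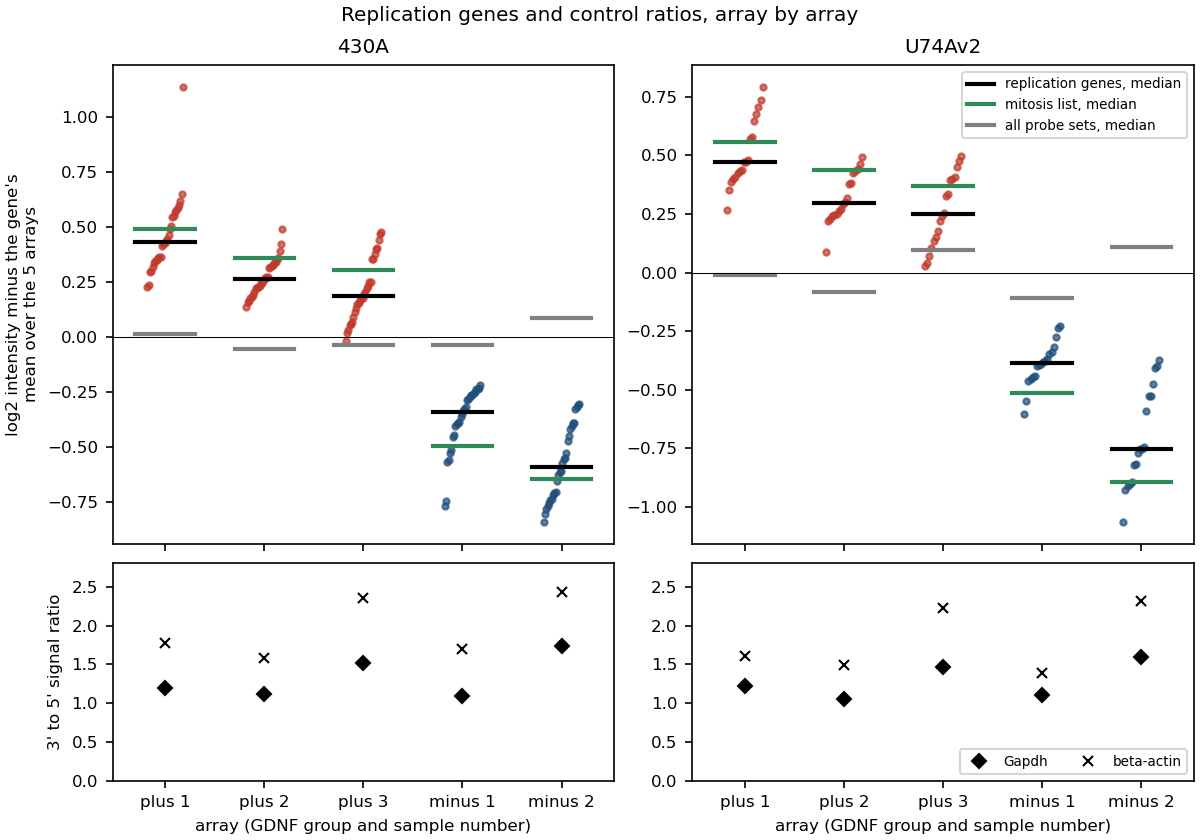
Upper panels: log2 intensity of each replication gene minus its mean over the 5 arrays of its type (points), with medians of the replication genes, of the mitosis list and of all probe sets tested as bars. Lower panels: 3′ to 5′ signal ratios of Gapdh and beta-actin on the same arrays. The replication medians lie at 0.19 to 0.47 on plus arrays and -0.34 to -0.75 on minus arrays, while the all-probe medians stay between -0.11 and 0.11.

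Several probe sets of a gene could be compared within an array. More than 1 named probe set on 430A was at hand for 10 genes, each higher with GDNF. Each had passed the authors' filter on these arrays, so that direction was set by the choice and is no check. Probe sets of these genes that failed the filter had no name, and the gaps leave them out. The gap between the largest and smallest difference of a gene had a median of 0.203 on the log2 scale and was under 0.25 in 6 of the 10. It was largest in Rfc4 (0.61 and 1.02), Mcm3 (0.67 to 1.03) and Mcm6 (0.84 and 1.19). The gene order above therefore depends on the probe set for genes that lie this close together.

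Other genes of the replication machinery were mostly higher where they were named. Of 80 further genes in lists of the same roles, 32 were named on 430A, all higher, with a median difference of 0.82. On U74Av2 21 were named, with a median of 1.06 and the groups apart in 20. Of these, the following are named after their values were seen. They included the licensing inhibitor Gmnn (log2 0.70 on 430A and 1.35 on U74Av2). The kinase that fires origins was represented by its catalytic subunit Cdc7 (0.94 on 430A) and its activator Dbf4 (0.98). Ligation and unwinding behind the fork were represented by Lig1 (0.74) and Top2a (1.06) on 430A. Among genes of histone supply and chromatin at the fork, Hells and Uhrf1, which maintain DNA methylation together with Dnmt1, differed by 1.24 and 1.18 on 430A. On U74Av2 Cdk2, the partner of cyclin E, was the exception, with a difference of 0.07 (SE 0.18) and groups that overlapped. The authors had listed this Cdk2 probe set as changed, which its deposited intensities do not show. The cause of this conflict was not tested.

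Genes of mitosis, the later step of the cycle, were mostly higher as well where they were named. Of 53 in the list, 38 were named on 430A, all higher, with a median of 0.93. On U74Av2 30 were named, with a median of 1.16 and the groups apart in 29. The exception, named after its value was seen, was Racgap1, a regulator of cytokinesis, with a difference of 0.02 (SE 0.29) on U74Av2. On 430A Racgap1 was higher by 1.05 (SE 0.11). The authors had listed the U74Av2 probe set as changed, which its deposited intensities do not show. Ncapg, a condensin subunit, and Ect2, which directs cytokinesis, had the smallest p on 430A (1.52 and 1.17). The difference between the medians of mitosis and replication genes was not tested. Of 17 genes of cell cycle exit 2 were named on 430A, both lower: Cdkn1a, an inhibitor of cyclin-dependent kinases (log2 -0.60), and the antiproliferative gene Btg2 (-0.49). On U74Av2 1 was named, the stress-response gene Gadd45b (-0.57), also lower.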

How the data were processed

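The 10 arrays were grouped by their titles, 3 plus and 2 minus GDNF on each of 2 Affymetrix types. Each array has a deposited linear intensity for every probe set (22690 on 430A, 12488 on U74Av2). The sources used here do not give how these intensities were summarised and normalized. The authors' comparison tables, made in dChip 1.3 per the series text, list the probe sets past the authors' filter with a signed fold change and its bounds (a score, since falls carry a minus sign) and the difference of the group means (the other deposited measure).

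Gene names came only from those deposited tables, as Entrez identifiers brought to current symbols with the RefSeq table of GRCm38.p6, used for names and for promoter windows. A current protein-coding gene, and no more than 1, was found for 661 of 693 listed probe sets on 430A and 292 of 312 on U74Av2. Probe sets with several genes or none were left out. The replication genes and all lists were chosen with earlier results of these data known, so nothing about them is a blind choice.

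Intensities under the 20th percentile of a table (143 on 430A, 65.0 on U74Av2) were set to it and log2 was taken. Control probe sets and probe sets at this floor on all 5 arrays were left out, leaving 19521 and 10588. Within a type the groups were compared by lmFit and eBayes (limma 3.58.1, R 4.3.3, two-sided), with Benjamini-Hochberg adjustment over all probe sets of the type, and unlabelled p-values and SEs are from limma. A gene was read from its named probe set of highest mean. The fit over both types took the 184 genes named on both with array type as a fixed term, adjusted over 10588 tests with unnamed ones at a p of 1. Its moderated variance was learned from genes selected on these arrays, so its p-values may be too small. The gap between types was an interaction term adjusted over the 184 genes. The fitting code was tested on simulated data. Where both minus arrays lay under the floor, the fold is a lower bound against it.

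Values in every array are given for genes named on both types and, within each role on 430A, for the largest 2 and the smallest difference. Other genes appear by range. From lists without such genes the 2 of smallest p on 430A are named. Alternatives were other normalizations, floors, variance models, sample number as a block, averaging of same-named arrays and leaving out each array. Chosen after seeing the data were leaving out plus array 3 with minus array 2, the Gapdh ratio as a covariate and no moderation. The labels do not say that sample numbers mark shared pools, so the numbers were not taken as pairs. The deviations of same-numbered plus and minus arrays correlated at -0.02 and -0.62 on 430A and 0.16 and -0.70 on U74Av2. With 2 minus arrays the deviations from their mean mirror each other, so these correlations cannot decide the pairing.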

Additional observations from a re-analysis of the deposited data

How the results depend on the processing

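No direction was reversed for a replication gene under any alternative run. Leaving out arrays or changing the floor or variance model could not reverse one, since each plus array stood above each minus array in these probe sets. All 28 on 430A and 18 on U74Av2 stayed higher, except that 19 and 13 of them, all higher, were left to fit among probe sets above the median level. The count past an adjusted p of 0.05 on 430A, 0 replication genes among 0 probe sets, became 1 of 30 with the floor at the 10th percentile, 7 of 156 among probe sets above the median level, 3 of 48 with a trended robust variance and 6 of 134 with the Gapdh ratio as a covariate, and at an adjusted p of 0.1 it was 10 of 198. Those 10 became 0 with sample number as a replicate block and 23 with the Gapdh covariate. On U74Av2 the probe sets called, 1 at first, were 0 with the floor at the 40th percentile, 4 above the median level, 3 with the trended variance, 0 without plus array 3 and minus array 2, and 5 at an adjusted p of 0.1. With the Gapdh covariate 267 were called there, 11 of them replication genes. Leaving out each array in turn gave 0 to 1 calls on U74Av2 and 0 on 430A. It moved the median difference to 0.647 to 0.902 on 430A, with the highest value without minus array 1. On U74Av2 the range was 0.729 to 1.12, from without minus array 2 to without minus array 1, and 0.791 without plus array 1. That median was 0.794 with the floor at the 40th percentile and 0.801 without plus array 3 and minus array 2. Over both types 14 or 15 of 15 genes passed when an array was left out (Orc6 had an adjusted p of 0.0535 without minus array 2 of 430A), and 12 passed without moderation, when Fen1, Orc6 and Rfc4 stood at 0.108, 0.0987 and 0.108. Genes differing between types, 1 of 184 and no replication gene, were 0 with the floor at the 40th percentile, 0 without plus array 3 and minus array 2, 2 with sample number as a replicate block, and 1 to 5 with an array left out, 5 without minus array 1 of U74Av2. The block left the calls at 0 on 430A and 1 on U74Av2, with medians of 0.797 and 0.982. The cause of these shifts was not tested. With 3 against 2 arrays the precision is limited by the number of arrays, and low genes such as Cdc6 and Ccne2 by the floor.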
